A study of Mus musculus with 10 samples.

Results

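The 10 genes described here encode the receptor chains of the type 2 cytokines interleukin (IL)-4, IL-13, IL-5, IL-31 and thymic stromal lymphopoietin (TSLP): Il4ra, Il13ra1, Il13ra2, Il2rg, Il5ra, Csf2rb, Il31ra, Osmr, Crlf2 and Il7r. They were chosen by name from the 24421 rows of the count tables, and all 10 had a row. RNA sequencing counts came from 10 pools of mouse vagal sensory neurons in 5 groups of 2 pools. In the Trpv1 selection, neurons were picked by red fluorescence from Trpv1-tdTomato mice, in which a Cre driven by Trpv1 switches on a tdTomato reporter at the ROSA26 locus, so that any cell that once expressed the Cre stays red. This gave 2 pools of 30 Trpv1-positive nodose neurons, 2 of 30 Trpv1-positive jugular neurons and 2 of 15 Trpv1-negative nodose neurons, all from 2 mice. In the capsaicin selection, neurons of wild-type C57BL/6 mice were picked by their calcium responses: the nodose pools (14 and 15 cells) had responded to both α,β-methylene ATP and capsaicin, and the jugular pools (15 and 16 cells) to capsaicin alone. No age or disease model is given, and the pools of a group can share a mouse, so every p-value measures only the spread between these pools.

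Type 2 cytokines are made by T helper 2 cells, innate lymphoid cells, mast cells and epithelium in allergic inflammation, and their receptors pair a ligand-specific chain with a shared one. IL-4Rα joins the common γ chain (Il2rg) to bind IL-4 or joins IL-13Rα1 to bind IL-4 and IL-13, IL-13Rα2 holds IL-13 as a decoy, IL-5Rα joins the common β chain (Csf2rb), IL-31RA joins the oncostatin M receptor (Osmr), and the TSLP receptor chain (Crlf2) joins IL-7Rα. The chains have no enzyme activity and signal through bound JAK kinases and STAT factors. Sensory neurons that carry such receptors are known from itch in the skin, and the vagal nodose and jugular ganglia hold the afferent neurons of the airways and other viscera.

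The promoters of the chains fell apart by CpG content. In the 250 bases upstream of the RefSeq start (GRCm38.p6), the sequences of 9 of the 10 members could be matched. Crlf2 had 24 CpG dinucleotides, Il13ra1 21, Osmr 18 and Il4ra 17, against a median of 6 over 27025 promoters. Il5ra and Il31ra had 4 each, Il2rg 3, and Il13ra2 and Il7r 1 each. The 4 CpG-rich members were also the 4 members whose transcripts reached 10 CPM (read counts scaled to a common library size) in at least 1 pool, which is a description of 9 genes and was not tested. The promoters of Il4ra (chr7:125552021-125552270, plus strand) and Il13ra1 (chrX:36111858-36112107, plus strand) are shown because these were the 2 members that reached 10 CPM in both pools of a group. That of Il31ra (chr13:112580663-112580912, minus strand) is shown as a CpG-poor promoter of a member with no count. Each reads 5′ to 3′, and capitals mark CpG:
Il4ra: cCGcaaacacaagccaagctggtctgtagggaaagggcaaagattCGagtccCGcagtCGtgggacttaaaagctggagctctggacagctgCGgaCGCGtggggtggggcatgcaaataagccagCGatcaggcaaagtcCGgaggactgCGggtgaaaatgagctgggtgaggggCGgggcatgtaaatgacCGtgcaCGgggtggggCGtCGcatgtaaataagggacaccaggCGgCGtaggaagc
Il13ra1: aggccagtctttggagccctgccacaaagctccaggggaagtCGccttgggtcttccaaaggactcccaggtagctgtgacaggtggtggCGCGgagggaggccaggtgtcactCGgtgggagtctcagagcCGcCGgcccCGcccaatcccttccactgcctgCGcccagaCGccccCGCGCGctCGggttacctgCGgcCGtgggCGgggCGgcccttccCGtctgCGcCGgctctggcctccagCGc
Il31ra: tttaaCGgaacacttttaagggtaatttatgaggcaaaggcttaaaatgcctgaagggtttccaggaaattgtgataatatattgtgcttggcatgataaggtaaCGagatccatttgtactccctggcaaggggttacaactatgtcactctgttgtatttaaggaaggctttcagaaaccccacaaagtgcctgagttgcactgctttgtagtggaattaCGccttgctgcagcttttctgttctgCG
The palindromes TTCNNNNGAA and TTCNNNGAA, which read the same on both strands and are the letters that STAT6 and other STAT factors bind, were searched in the same window. TTCNNNNGAA was in 5.87% of all promoters and in none of the 9. TTCNNNGAA was in 7.18% of all promoters, and once each in those of Il31ra and Il7r.

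Total counts were 148452506 to 167704327 in the Trpv1 selection and 17666710 to 30810863 in the capsaicin selection, and the selection goes together with mouse strain, sequencing core and depth, which cannot be told apart. A floor of 3 counts lay between 0.0144 and 0.0191 CPM in Trpv1-selected pools and between 0.146 and 0.217 CPM in capsaicin-selected pools; it covers counting error only. Sensory neuron genes were abundant in every pool, and markers of jugular neurons (Prdm12, Tac1 and Gfra3) summed to 411 CPM or more in the jugular and at most 1.54 CPM in the nodose pools. Trpv1 itself was at 0.0431 and 0.0413 CPM in the Trpv1-negative pools. Of the members, 7 had at least 1 count in a pool. Il13ra2, Il2rg and Il31ra were at 0 counts in all 10 pools and are therefore below these floors, which does not show that they are absent from vagal neurons. In pooled cells, fewer cells that express a gene and less RNA per cell cannot be told apart.

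**Figure D1:**
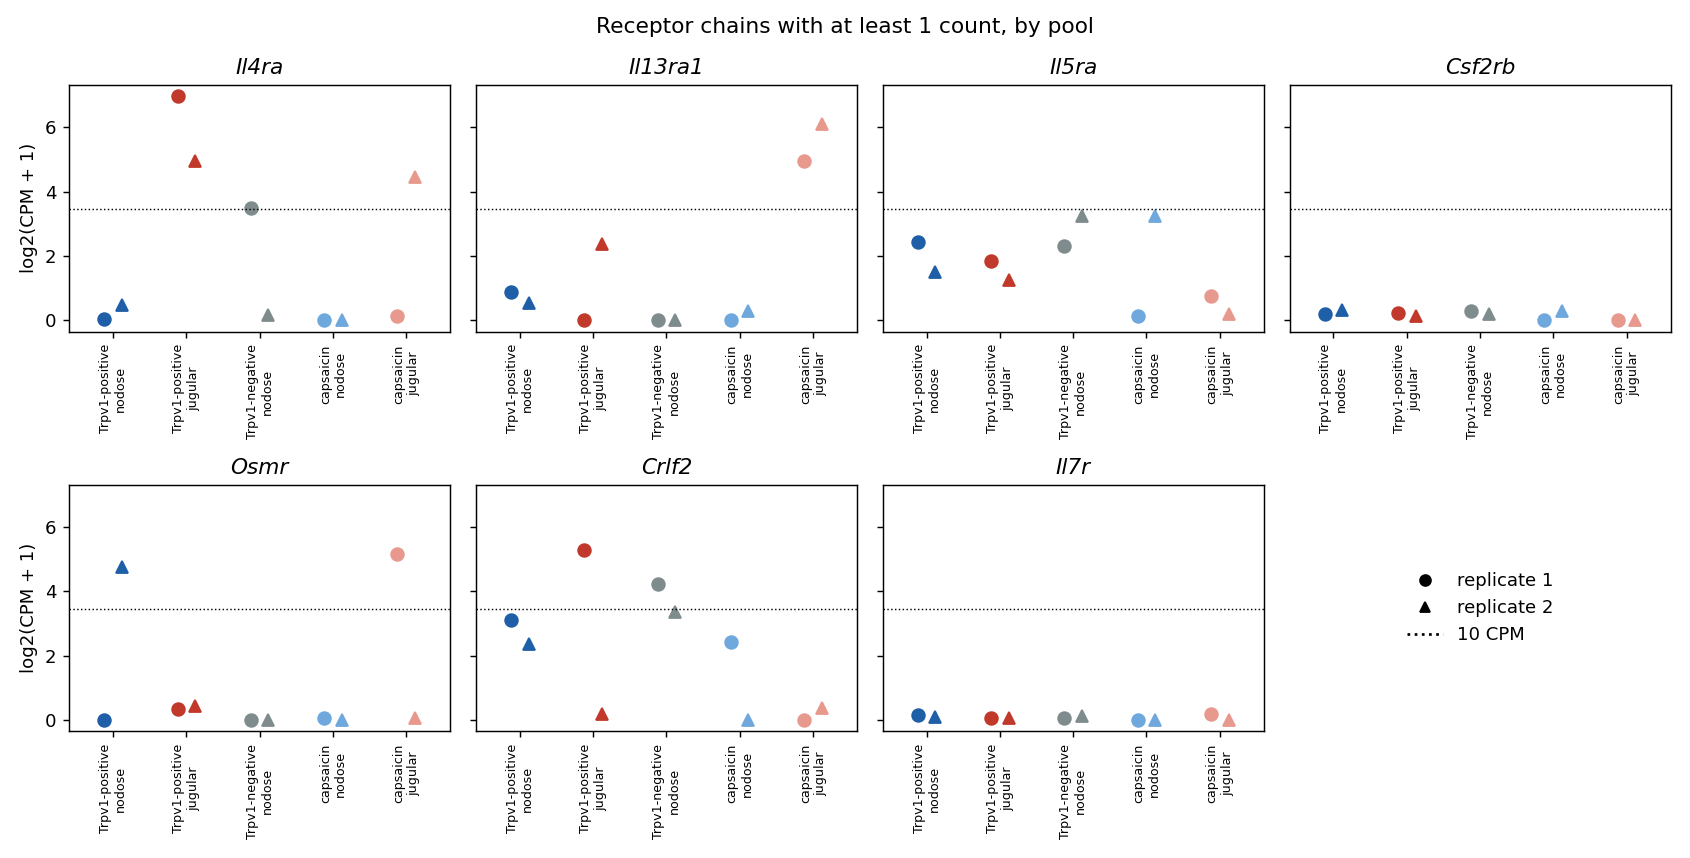
Level of each of the 7 receptor chains with at least 1 count, as log2(CPM + 1), in the 10 pools (circles, replicate 1; triangles, replicate 2), with 10 CPM as a dotted line. Il4ra is over the line in both Trpv1-positive jugular pools and Il13ra1 in both capsaicin jugular pools, while Osmr, Crlf2 and, in other groups, Il4ra are over it in only 1 pool of a group.

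Il4ra, the chain shared by the receptors of IL-4 and IL-13 (chromosome 7, 125552120 to 125579474, plus strand), was the member with the clearest difference between the ganglia. It was at 124 and 30.1 CPM in the Trpv1-positive jugular pools, and at 0.0255 and 0.389 CPM in the Trpv1-positive nodose pools. In the capsaicin selection it was at 0.0972 and 21.0 CPM in the jugular pools, and had no count in either nodose pool. Both jugular pools lay above both nodose pools in each selection, but the lower capsaicin jugular pool held only 2 counts, under the floor. The Trpv1-negative nodose pools were at 10.4 and 0.124 CPM.

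By group mean, the Trpv1-positive jugular pools (77.2 ± 66.6 CPM, SD, n = 2) came first, then the capsaicin jugular pools (10.6 ± 14.8), the Trpv1-negative nodose pools (5.24 ± 7.23), the Trpv1-positive nodose pools (0.207 ± 0.257) and the capsaicin nodose pools at 0. No neighbours in this order differed by more than the larger of their SDs. The log2 fold change of nodose over jugular neurons was -8.53 (SE 2.30) in the Trpv1 selection, with an adjusted p of 0.321 by edgeR's quasi-likelihood test over all genes. DESeq2 gave -8.49 (SE 1.97) with an adjusted p of 0.00021; over the 10 alternatives to the edgeR fit, the adjusted p ran from 0.00021 to 0.704 and the log2 fold change from -11.55 to -7.18. In the fit of all 8 jugular and Trpv1-positive or capsaicin-responsive nodose pools, with selection as a covariate, it was -9.60 (SE 2.73), with an adjusted p of 0.235 by edgeR and 1.19e-05 by DESeq2 (up to 0.614 over the 13 alternatives). Since the capsaicin nodose pools held no count, the size of the fitted value over both selections depends in part on the prior count and is no bound. An exact two-sided permutation test of log2(CPM + 1) within selections gave a mean difference of -4.00 (n = 8 pools) and p = 0.0556, the smallest that its 36 arrangements allow. Il4ra thus differed between the ganglia by DESeq2, the test the study used, and not by the edgeR test.

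Whether that difference was the same in both selections was tested by their interaction, which for Il4ra was 4.22 (SE 4.84, log2 scale) with an adjusted p of 0.915 by edgeR. With no count in either capsaicin nodose pool, the size of the interaction also depends on the prior count and is no bound. Against Trpv1-negative nodose neurons, the Trpv1-positive nodose neurons had a log2 fold change of -4.65 (SE 3.08, adjusted p of 0.748 by edgeR), and the 2 groups overlapped. Without Trpv1-negative replicate 1 that value turned to 0.82. An antisense gene, Gm44876, overlaps Il4ra, and with the strand setting of the counting not stated, reads of the 2 cannot be told apart.

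Il13ra1, which pairs with IL-4Rα to form the receptor that binds both IL-4 and IL-13 (chromosome X, 36112110 to 36171259, plus strand), was highest in capsaicin jugular neurons. The 2 capsaicin jugular pools were at 30.2 and 68.1 CPM, and the capsaicin nodose pools held 0 and 3 counts (0 and 0.217 CPM). The Trpv1-positive jugular pools held 0 and 844 counts (4.22 CPM), the Trpv1-positive nodose pools were at 0.848 and 0.450 CPM, and the Trpv1-negative nodose pools held 3 and 0 counts. The capsaicin jugular group (49.1 ± 26.8 CPM, n = 2) stood apart from the next, the Trpv1-positive jugular group (2.11 ± 2.99), by more than the SD of either. Then came Trpv1-positive nodose (0.649 ± 0.282), capsaicin nodose (0.109 ± 0.154) and Trpv1-negative nodose (0.00718 ± 0.0102) pools, and of these neighbours Trpv1-positive and capsaicin nodose differed by more than either SD, at levels near the floor of the capsaicin selection.

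The log2 fold change of Il13ra1 for nodose over jugular neurons was -9.27 (SE 3.59) in the capsaicin selection, with an adjusted p of 0.352 by edgeR and 0.00627 by DESeq2 (0.00627 to 1 over the 10 alternatives), and it ran from -13.00 to -8.29 with each pool left out. Since the nodose pools held 0 and 3 counts, the size of this fitted value depends on the prior count and is no bound. In the Trpv1 selection it was -1.72 (SE 3.05, adjusted p of 0.945 by edgeR), and the pools overlapped, since 1 jugular pool had no count. It was 9.77 without Trpv1-positive jugular replicate 2, the pool with the 844 counts. The interaction was 7.76 (SE 5.10, adjusted p of 0.642 by edgeR), so that a different contrast in the 2 selections was not shown. Over both selections the value was -5.35 (SE 4.09), with an adjusted p of 0.911 by edgeR and 0.0898 by DESeq2 (0.0898 to 0.943 over the 13 alternatives). With each pool left out it ran from -7.71 to -3.06, and p was 0.167 in the exact permutation test (n = 8 pools).

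Il13ra1 had 133 and 74 counts in the Trpv1-positive nodose pools, against 3 and 0 in the Trpv1-negative ones. The log2 fold change was 6.35 (SE 2.19), with an adjusted p of 0.386 by edgeR and 0.0175 by DESeq2 (0.0175 to 0.807 over the 10 alternatives), but no pool reached 10 CPM and the gene was not called by either tool.

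The partner chains of IL-4Rα and IL-13Rα1 gave a different picture. Il2rg, the common γ chain of the IL-2, IL-4 and IL-7 receptors (chromosome X, 101264378 to 101268255, minus strand), and Il13ra2, the IL-13 decoy (chromosome X, 147383476 to 147429192, minus strand), had no count in any pool. In the 2 Trpv1-positive jugular pools, where Il4ra had 23298 and 6005 counts, Il13ra1 had 0 and 844. In the 2 capsaicin jugular pools Il4ra had 2 and 407 counts and Il13ra1 621 and 1318. Both chains therefore passed the floor of 3 counts in 1 Trpv1-positive and 1 capsaicin jugular pool. They also passed it in both Trpv1-positive nodose pools, where Il4ra held only 4 and 64 counts. The lower of these (0.0255 CPM) is under the level of Trpv1 in the Trpv1-negative pools (0.0431 and 0.0413 CPM), so that presence is not shown. Whether single cells held both chains cannot be read from pools. Another protein-coding gene model, Gm20489, overlaps Il2rg on the same strand, so reads in the shared part could have been dropped as ambiguous in the counting.

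Il5ra, the IL-5-binding chain (chromosome 6, 106710357 to 106749037, minus strand), was low and spread over all groups. It had a count in all 10 pools and was the only member at 1 CPM or more in all 6 pools of the Trpv1 selection. It was at 4.37 and 1.82 CPM in the Trpv1-positive nodose pools, 2.60 and 1.37 CPM in the Trpv1-positive jugular pools and 3.98 and 8.43 CPM in the Trpv1-negative nodose pools. In the capsaicin selection it was at 0.103 and 8.41 CPM in the nodose pools and at 0.680 and 0.155 CPM in the jugular pools. The groups overlapped in every comparison, and their order by mean (Trpv1-negative nodose 6.20 ± 3.15 CPM, capsaicin nodose 4.26 ± 5.87, Trpv1-positive nodose 3.09 ± 1.80, Trpv1-positive jugular 1.99 ± 0.875, capsaicin jugular 0.418 ± 0.372) had no neighbours that differed beyond their spread except the last 2.

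By edgeR, the log2 fold change of Il5ra for nodose over jugular neurons was 0.63 (SE 1.91, adjusted p of 0.974) in the Trpv1 selection, 2.84 (SE 2.40, adjusted p of 0.912) in the capsaicin selection and 1.77 (SE 1.91, adjusted p of 0.965) over both. For Trpv1-positive over Trpv1-negative nodose neurons it was -0.97 (SE 1.96, adjusted p of 0.974). Csf2rb, the β chain that IL-5Rα needs to signal (chromosome 15, 78325752 to 78353847, plus strand), reached at most 0.237 CPM, with 18 to 49 counts in the Trpv1 selection and 0 to 3 in the capsaicin selection. Its values are uncertain, because the near-identical Csf2rb2 lies beside it and reads that match both could have been left out or split.

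Crlf2, the TSLP-binding chain (chromosome 5, 109554709 to 109558993, minus strand), was over the floor of 3 counts in 8 of the 10 pools, 5 nodose and 3 jugular. It was at 17.8 and 9.29 CPM in the Trpv1-negative nodose pools, 7.56 and 4.10 CPM in the Trpv1-positive nodose pools and 4.39 and 0 CPM in the capsaicin nodose pools. The Trpv1-positive jugular pools were at 37.7 and 0.140 CPM, which puts the highest value of all pools and a value near the lowest in 1 group. The capsaicin jugular pools were at 0 and 0.310 CPM. By mean, the order was Trpv1-positive jugular (18.9 ± 26.6 CPM), Trpv1-negative nodose (13.5 ± 6.02), Trpv1-positive nodose (5.83 ± 2.44), capsaicin nodose (2.19 ± 3.10) and capsaicin jugular (0.155 ± 0.219), and of these neighbours the Trpv1-negative and Trpv1-positive nodose groups and the Trpv1-positive and capsaicin nodose groups differed by more than the SD of each.

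The log2 fold change of Crlf2 for Trpv1-positive over Trpv1-negative nodose neurons was -1.20 (SE 1.85), with an adjusted p of 0.950 by edgeR. Nodose over jugular it was -1.70 (SE 2.62, adjusted p of 0.933 by edgeR) in the Trpv1 selection, and 5.34 without Trpv1-positive jugular replicate 1. Il7r, the partner chain in the TSLP receptor and the binding chain of the IL-7 receptor (chromosome 15, 9505788 to 9530176, minus strand), stayed at or below 0.146 CPM in every pool, with 8 to 20 counts in the Trpv1 selection and 0 to 3 in the capsaicin selection. Its log2 fold change of nodose over jugular neurons was 0.82 (SE 0.93, adjusted p of 0.896 by edgeR) in the Trpv1 selection.

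Osmr, which pairs with IL-31RA for IL-31 and with gp130 for oncostatin M (chromosome 15, 6813577 to 6874969, minus strand), was high in 1 pool of 1 group of each selection. It was at 0 and 26.1 CPM in the Trpv1-positive nodose pools and at 34.5 and 0.0516 CPM in the capsaicin jugular pools. The Trpv1-positive jugular pools were at 0.283 and 0.340 CPM, the capsaicin nodose pools held 1 and 0 counts, and the Trpv1-negative nodose pools held none. No group mean (13.04 ± 18.5 CPM in Trpv1-positive nodose and 17.3 ± 24.4 in capsaicin jugular pools, n = 2 each) exceeded its own SD where the gene was high.

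The log2 fold change of Osmr for nodose over jugular neurons was 5.39 (SE 3.98, adjusted p of 0.779 by edgeR) in the Trpv1 selection. It was 6.39 without Trpv1-positive nodose replicate 1 and -8.83 without replicate 2, so that a single pool set its direction. Il31ra, the ligand-binding chain for IL-31 (chromosome 13, 112519898 to 112594360, minus strand), had no count in any pool, with the same-strand pseudogene Gm3226 inside its bounds.

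Across the members, no chain was called in any of the 5 comparisons by edgeR, where a call needed an adjusted p no higher than 0.1, a change of 2-fold or more and 10 CPM or more in both pools of a group. For nodose over jugular neurons of the Trpv1 selection, 7 members were tested by edgeR. Of these, 1 (Il4ra) had an unadjusted p under 0.05, as did 1305 of all 10990 genes tested, and 0.318% of all genes were called. DESeq2 called 1 member (Il4ra) and 3.79% of all genes. In the capsaicin selection 2 members were tested by edgeR. Of these, 1 (Il13ra1) had an unadjusted p under 0.05, as did 1150 of all 8181 genes tested, and 0% of all genes were called. DESeq2 called 1 member (Il13ra1) and 7.39% of all genes. For Trpv1-positive over Trpv1-negative nodose neurons, 6 members were tested by edgeR. Of these, 1 (Il13ra1) had an unadjusted p under 0.05, as did 1264 of all 11386 genes tested, and 0.0527% of all genes were called. DESeq2 called no member and 2.75% of all genes. Over both selections, 6 members were tested by edgeR. Of these, 1 (Il4ra) had an unadjusted p under 0.05, as did 874 of all 10670 genes tested, and 0.825% of all genes were called. DESeq2 called 2 members (Il4ra and Il13ra1) and 8.79% of all genes. In the interaction, 7 members were tested by edgeR. Of these, 0 had an unadjusted p under 0.05, against 1233 of all 11959 genes tested, and 0% of all genes were called. DESeq2 called no member and 8.95% of all genes.

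In the DESeq2 fit of the capsaicin selection, Il4ra (adjusted p of 0.018) and Osmr (adjusted p of 0.0237) also passed the threshold on p, but each reached 10 CPM in only 1 jugular pool. Il4ra was the only member with both jugular pools above both nodose pools in each selection, a pattern that 4.39% of 14728 genes showed. A comparison of 2 against 2 pools alone cannot give an exact permutation p under 0.333. The median log2 fold change of the members tested was 0.61 in the Trpv1 selection against 0.03 over all genes, and -0.37 over both selections against -0.16.

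**Figure D2:**
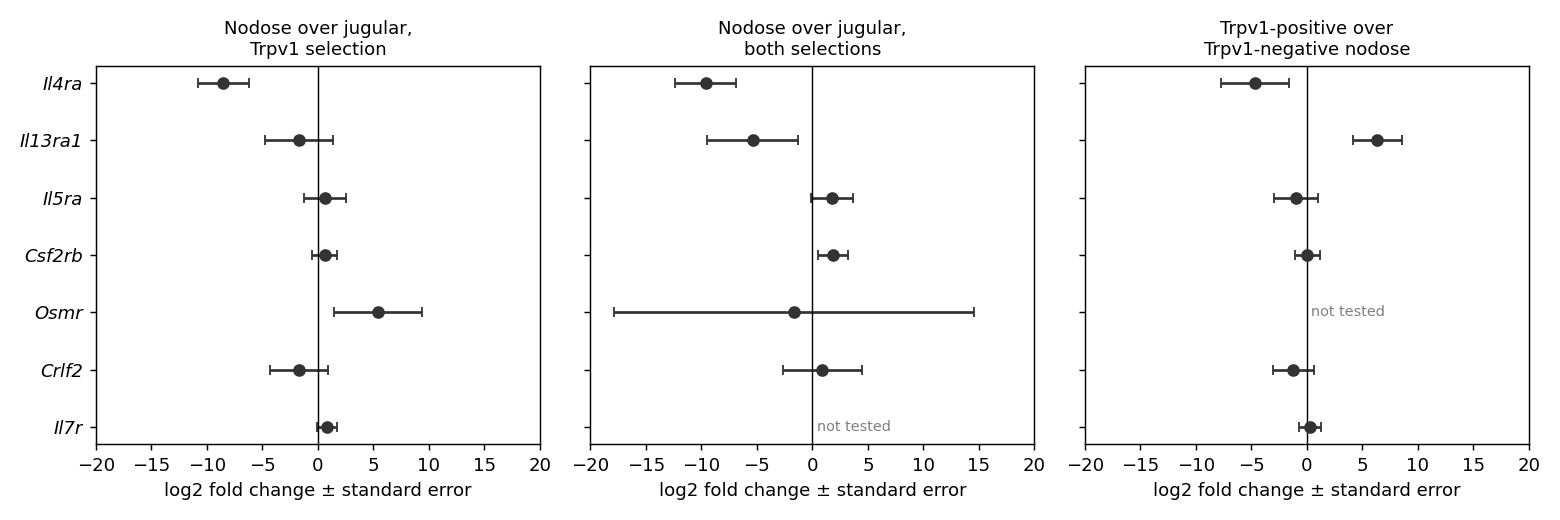
Log2 fold changes (points) with their standard errors (bars) from edgeR for the 7 members with counts, in nodose over jugular neurons of the Trpv1 selection and of both selections and in Trpv1-positive over Trpv1-negative nodose neurons. Il4ra lies farthest from 0 in both comparisons of the ganglia, at -8.53 and -9.60, and the bar of Osmr over both selections (SE 16.2) spans most of the axis.

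Pools of the same group often disagreed. A member was at 10 CPM or more in at least 1 pool of a group in 8 cases, and in 5 of these the other pool of the group was under 1 CPM: Osmr in Trpv1-positive nodose, Crlf2 in Trpv1-positive jugular, Il4ra and Osmr in capsaicin jugular and Il4ra in Trpv1-negative nodose neurons. Over all genes the same held for 25.0% of 39240 cases, with 15.5% in the Trpv1-negative nodose and 44.4% in the capsaicin nodose pools as the extremes. The 3 cases in which the pools did not split were Il4ra in Trpv1-positive jugular, Il13ra1 in capsaicin jugular and Crlf2 in Trpv1-negative nodose neurons.

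Compared per kilobase of exon, the highest level of any member was that of Crlf2 in the first Trpv1-positive jugular pool (25.2 CPM per kilobase), followed by Il4ra in the same pool (20.7) and Il13ra1 in the second capsaicin jugular pool (18.3). Osmr, whose exons add up to 12113 bases, reached at most 2.85 CPM per kilobase, and Il5ra at most 2.36. Group means per kilobase of Il4ra (12.9 ± 11.1) and Crlf2 (12.7 ± 17.8) in Trpv1-positive jugular neurons and of Il13ra1 (13.2 ± 7.22) in capsaicin jugular neurons were close to each other and had wide spreads. Because the kit primes at the poly(A) tail, a correction by exon length is approximate.

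**Figure D3:**
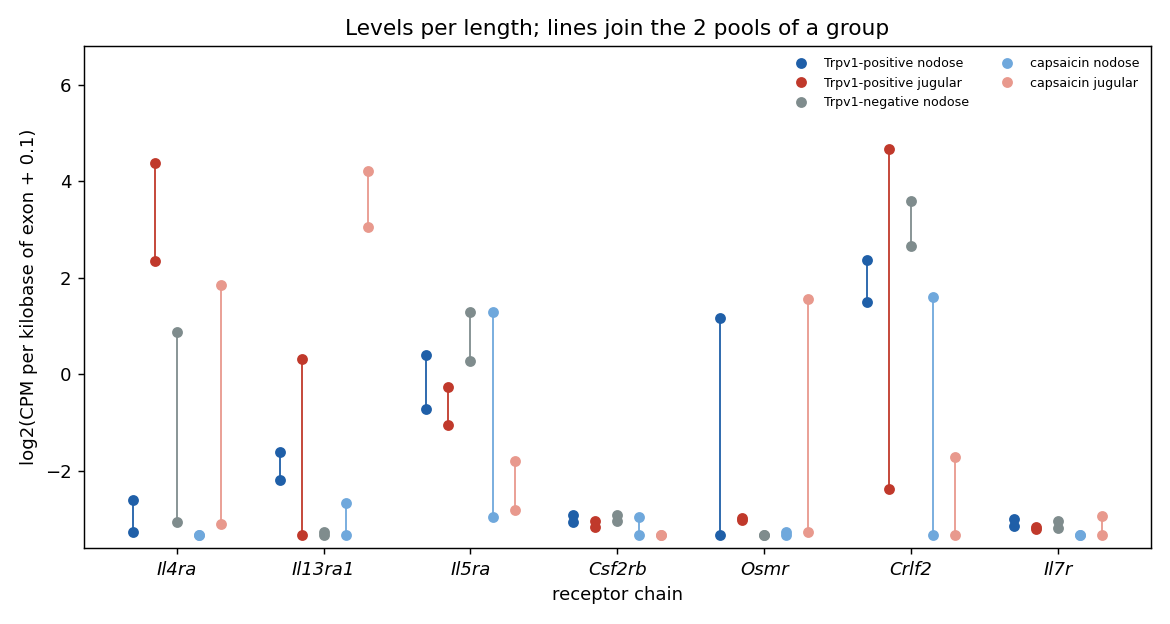
Level per length of each member with counts, as log2(CPM per kilobase of exon + 0.1), with a line joining the 2 pools of each group. Short lines high on the axis belong to Il13ra1 in capsaicin jugular neurons (8.13 and 18.3 CPM per kilobase) and Crlf2 in Trpv1-negative nodose neurons (11.9 and 6.21), whereas the pools of Crlf2 in Trpv1-positive jugular neurons (25.2 and 0.0937) lie far apart.

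Type 2 receptor chains are also found in immune cells, fibroblasts and glia, so markers of these cells were read in the same pools. Of 14 macrophage markers, 10 had no count in any pool, Ptprc, Csf1r and the C1q genes among them, and the 14 summed to 0.01 to 9.30 CPM in the Trpv1-positive groups, 0.0258 to 0.661 CPM in the Trpv1-negative group, 0.145 to 93.8 CPM in capsaicin nodose and 0 to 22.1 CPM in capsaicin jugular neurons, where nearly all of it was Cd68. Of 8 T cell and innate lymphoid markers, Cd3e, Cd3g and Cd4 had no count in any pool; the sums were 139 to 149 CPM in Trpv1-positive jugular, 57.5 to 58.5 CPM in Trpv1-positive nodose, 59.4 to 135 CPM in Trpv1-negative nodose, 5.99 to 81.2 CPM in capsaicin nodose and 0.362 to 14.8 CPM in capsaicin jugular neurons. Thy1, which neurons also express, made up most of the sums of the Trpv1 selection, and Gata3 reached 59.0 CPM in capsaicin nodose replicate 2. Of 8 mast cell, basophil and eosinophil markers, Cpa3, Mcpt4, Fcer1a, Ms4a2 and Epx had no count in any pool. Kit was at 16.9 and 59.1 CPM in the Trpv1-positive jugular pools and at most 0.0191 CPM in all others. Il4ra was highest in the same group, at 124 and 30.1 CPM. Among the same 8 markers, Prg2 was at 18.7 CPM in capsaicin nodose replicate 2. Of 4 B cell markers, Cd79a alone had counts, with 19.2 CPM in capsaicin jugular replicate 1, where Osmr was at 34.5 CPM and Cd68 at 22.1 CPM. Of 6 endothelial markers, Cdh5 and Cldn5 had no count in any pool, and the sum was 30.9 CPM, mostly Kdr, in Trpv1-positive nodose replicate 2, where Osmr was at 26.1 CPM, and at most 3.99 CPM in the other pools.

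The 6 fibroblast markers summed to 38.1 and 5.83 CPM in the Trpv1-positive jugular pools, 0.273 to 9.67 CPM in the Trpv1-positive nodose pools and 17.8 to 23.9 CPM in the Trpv1-negative nodose pools. In the capsaicin jugular pools, where Il13ra1 was high, they summed to 296 and 51.5 CPM against 47.6 and 0 CPM in the capsaicin nodose pools. Dcn made up all of the first jugular sum, whereas the second, in the pool with the higher level of Il13ra1, was Col1a2 at 30.5 CPM and Dcn at 21.0 CPM. Col1a1, Col3a1, Lum and Pdgfra had no count in these 4 pools. The 10 glial markers, most abundant among them Apoe, S100b and Fabp7, were present in every pool. Their sums were 3354 to 4632 CPM in Trpv1-positive jugular, 4139 to 4240 CPM in Trpv1-positive nodose, 3667 to 3971 CPM in Trpv1-negative nodose, 893 to 1321 CPM in capsaicin nodose and 604 to 846 CPM in capsaicin jugular neurons. The part of RNA from these other cell types in the levels of Il4ra, Il13ra1 and Osmr was not tested.

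Downstream of the receptors, Jak1 was the pathway gene that differed between the ganglia by edgeR. Jak1, a kinase bound by IL-4Rα and many other cytokine receptor chains, was higher in nodose neurons, the opposite side to Il4ra. It was at 1175 and 1078 CPM in the Trpv1-positive nodose pools against 147 and 54.8 CPM in the Trpv1-positive jugular pools, and at 657 and 587 CPM in the capsaicin nodose pools against 52.7 and 88.3 CPM in the capsaicin jugular pools. The Trpv1-negative nodose pools were at 640 and 587 CPM. All 4 nodose pools lay above all 4 jugular pools, and the log2 fold change over both selections was 3.16 (SE 0.46, adjusted p of 0.0129 by edgeR and 1.6e-06 by DESeq2). The call held in all 13 alternatives, with an adjusted p of at most 0.0759.

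Of the 24 JAK, STAT, SOCS and adaptor genes of the list, 23 had a count and Jak3, the kinase of the common γ chain, had none, as Il2rg had none. Jak1 was the only 1 of 18 tested that was called over both selections by edgeR, against 0.825% of all genes tested. None was called in the Trpv1 selection, the capsaicin selection or the comparison with Trpv1-negative neurons. There, 2 of 18, 5 of 16 and 1 of 18 tested had an unadjusted p under 0.05 by edgeR. Over all genes these were 1305 of 10990, 1150 of 8181 and 1264 of 11386. DESeq2 called 1 (Jak1), 2 (Stat2 and Stat6), 1 (Stat5b) and, over both selections, 3 (Jak1, Socs5 and Stat2). It called 3.79%, 7.39%, 2.75% and 8.79% of all genes, in the same order. The median log2 fold change of the list over both selections was -0.35, against -0.16 over all genes. Stat3, the STAT factor of gp130-type receptors, was at 87.2 to 377 CPM and the adaptor Grb2 at 40.4 to 154 CPM over the 10 pools, and neither was called.

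Stat6, the STAT factor of IL-4 and IL-13, is given because of its role and was named after its values were seen. It was at 103 and 128 CPM in the capsaicin jugular pools against 2.63 and 0.0725 CPM in the capsaicin nodose pools. In the Trpv1 selection it split within groups, at 52.5 and 0.0243 CPM in the Trpv1-positive nodose and 0.667 and 60.8 CPM in the Trpv1-positive jugular pools. The log2 fold change of nodose over jugular neurons in the capsaicin selection was -6.61 (SE 2.54), with an adjusted p of 0.352 by edgeR and 0.0483 by DESeq2. In the capsaicin jugular group, the chain Il13ra1 and the factor Stat6 were thus both over 10 CPM in both pools. Such levels were not rare there: 8029 genes reached 10 CPM in either pool, and 2259 of these fell under 1 CPM in the other. A link between Il13ra1 and Stat6 was not tested. Il4ra, the partner chain of IL-13Rα1, held 2 and 407 counts in these pools, the first under the floor of 3 counts.

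**Figure D4:**
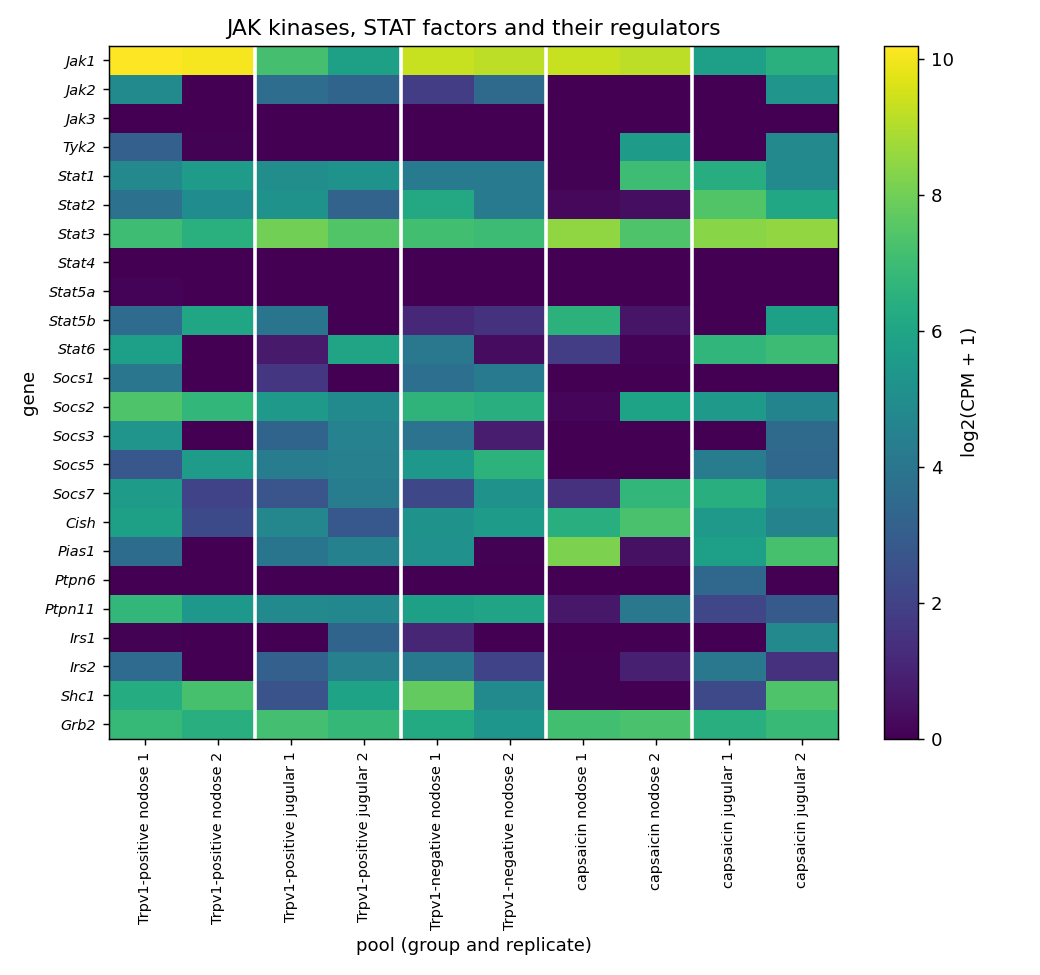
Level of the 24 genes of the JAK, STAT and regulator list as log2(CPM + 1), by colour, in the 10 pools, with white lines between groups. Jak1 is brightest in the nodose pools (587 CPM or more) and darker in the 4 jugular pools (147 CPM or less), Stat3 is at 87.2 CPM or more in all pools, and Jak3 has no count.

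Of 21 class I cytokine receptor chains that are not members, 17 had a count. None was called by edgeR or DESeq2 in the comparisons of the ganglia or with Trpv1-negative neurons. By edgeR, an unadjusted p under 0.05 was found for 2 of 12 tested in the Trpv1 selection and 1 of 11 over both selections. It was found for 0 of 4 in the capsaicin selection and 0 of 12 against Trpv1-negative neurons. The matching counts over all genes are given with the members above. Lifr, the receptor chain of leukaemia inhibitory factor and a relative of Osmr, was at 154 to 252 CPM in the 6 Trpv1-selected pools and 1122 to 3078 CPM in the 4 capsaicin-selected ones. Il6st (gp130), which pairs with both Osmr and Lifr, was at 0.29 to 211 CPM, and Ghr, the growth hormone receptor, at 0.0516 to 129 CPM. The 4 chains for the alarmins IL-33 and IL-25 had counts and none was called by either tool (1 of 2 tested had an unadjusted p under 0.05 by edgeR in the Trpv1 selection, and 0 in the other comparisons). Il1rap, the shared chain of the IL-1 and IL-33 receptors, was at 51.3 CPM in 1 capsaicin jugular pool and at most 9.80 CPM elsewhere. Il1rl1, the IL-33 receptor, was at most 0.889 CPM, and Il17rb, a chain of the IL-25 receptor, at most 3.09 CPM.

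The ligands were found in few pools. Of 12 cytokine genes that include the ligands of these receptors, 4 had a count and none passed the filter for testing. Il4 was at 7.49 CPM in 1 capsaicin nodose pool and had no count in the other 9. Il5 had counts in 2 pools (4.07 and 0.775 CPM) and Il7 in 1 (5.63 CPM).

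Genes of itch-related sensory neurons were read as a further list of 16, of which 14 had a count. Over both selections 2 of 8 tested were called by edgeR, against 0.825% of all genes, in a list chosen with earlier results of these data known. Both were higher in jugular neurons. Mrgprd, a receptor that marks non-peptidergic nociceptors, was at 72.0 to 679 CPM in the 4 jugular pools and at most 0.652 CPM in the 4 nodose pools of these groups (log2 fold change -10.98, SE 1.31, adjusted p of 0.00311 by edgeR). Lpar3, a lysophosphatidic acid receptor, was at 28.4 to 93.9 CPM against at most 0.0725 CPM (-10.69, SE 2.14, adjusted p of 0.0779 by edgeR, lost with each of the 8 pools left out, up to 0.298). Mrgprd lost its call only without capsaicin jugular replicate 2 (adjusted p of 0.196). Trpv1, the capsaicin receptor, was called higher in Trpv1-positive than in Trpv1-negative nodose neurons, at 251 and 146 CPM against 0.0431 and 0.0413 CPM (log2 fold change 12.20, SE 0.93, adjusted p of 0.070 by edgeR, lost with each of the 4 pools left out, up to 0.792). These pools had been sorted by a reporter driven by Trpv1, so that the difference in Trpv1 follows from the selection. By DESeq2, Trpa1 and Sst were called in that comparison as well as Trpv1. The edgeR test gave Trpa1 an adjusted p of 0.342 and Sst 0.366. Trpa1, a channel for irritants, was at 81.3 and 109 CPM in the Trpv1-positive and 0.0239 and 0.0155 CPM in the Trpv1-negative nodose pools. Sst went the other way, at 0.0191 and 0.00607 CPM against 29.6 and 18.9 CPM. Plcb3, a phospholipase of itch signalling, was at 33.8 to 287 CPM over the 10 pools. None of the list was called in the Trpv1 or capsaicin selection alone by edgeR. There, 5 of 9 and 3 of 7 tested had an unadjusted p under 0.05, against 1305 of 10990 and 1150 of 8181 genes. In the Trpv1 selection 2 of them were higher in nodose and 3 in jugular neurons. In the capsaicin selection all 3 were higher in jugular neurons. DESeq2 called 3 and 4 of the list, and 3.79% and 7.39% of all genes. Of the 3, Cysltr2 was higher in nodose neurons (36.1 and 10.3 CPM against 0.0107 and 0 CPM) and the other 2 in jugular neurons. All 4 of the capsaicin selection were higher in jugular neurons. Nppb and Nts of the list had no count in any pool.

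The genes whose levels over the 10 pools were most like those of the 2 members at 10 CPM in both pools of a group were found among 7842 genes by the Pearson correlation of log2(CPM + 1), as a description. For Il4ra these were Leng1 (r = 0.977), Glipr2 (r = 0.976) and Rpph1 (r = 0.962). Glipr2 was at 87.6 and 46.5 CPM in the Trpv1-positive jugular pools, 0.0972 and 67.7 CPM in the capsaicin jugular pools and 13.04 and 0.858 CPM in the Trpv1-negative pools, so that it shared with Il4ra the split of the capsaicin jugular group. For Il13ra1 they were Rgag1 (r = 0.988), Gm3604 (r = 0.987) and Lhfpl1 (r = 0.981), of which Lhfpl1 was at 134 and 194 CPM in the capsaicin jugular pools and at most 8.99 CPM elsewhere. The points share libraries, 2 depths and 2 ways of selecting cells. The top values of r were picked from 7842 genes over 10 pools, and how common such values are was not tested.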

How the data were processed

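The authors collected vagal neurons by pipette, pooled them, made cDNA with the SMARTer Ultra Low Input kit and sequenced it. Per the labels and the methods, CASAVA 1.8.2 made the reads, TopHat2 2.0.9 and Bowtie2 2.1.0.0 aligned them to mm10 and HTSeq counted them per gene symbol. The deposited values are raw counts, not normalized; the annotation, the strand setting and the HTSeq version are not given in the sources used here. In each file, 27 of 24421 rows have symbols turned into month-like words and were kept as they stand.

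CPM was computed as counts over DESeq2 size factors of all 10 pools, scaled by the geometric mean total. The main test was edgeR 4.0.16 (R 4.3.3; TMM, filterByExpr, glmQLFit and glmQLFTest, Benjamini-Hochberg over all genes tested), with the SE taken as the size of the log2 fold change over the square root of F; DESeq2 1.42.0, the tool of the study, was the alternative. Groups came from the sample labels. Scripts were tested on simulated counts with the real and with a low spread. Recovery was required only at the low spread, so that this gives no power for these pools. Replicate numbers did not pair the pools. Python 3.11.15 was used for the summaries, gene positions are from GENCODE (GRCm38) and promoters from RefSeq.

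All 10 members are named, and of each further list the called genes and the 3 with the highest mean CPM; for likeness, the 3 genes with the highest r. The members and lists were chosen with earlier results of these data known. The closing section gives the alternatives (test, size factors, filter, CPM minimum, replicate block, pools in the fit, each pool left out, scaling and pseudocount).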

Additional observations from a re-analysis of the deposited data

Results flagged for a closer look

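Osmr differed in its ganglion contrast between the 2 selections by DESeq2, with an interaction of 14.69 on the log2 scale (SE 4.94) and an adjusted p of 0.0228. The edgeR test gave 14.83 (SE 6.89) and an adjusted p of 0.496, and over the 12 alternatives the value ran from 1.56 to 19.0 and the adjusted p from 0.0228 to 1. The gene was at 26.1 CPM in Trpv1-positive nodose replicate 2 and 34.5 CPM in capsaicin jugular replicate 1, and at most 0.340 CPM in the other 8 pools. It did not reach 10 CPM in both pools of any group, so that it was not called by either tool. No other member passed a test of the difference between selections, and groups of 2 pools are too small for a test of single outlying pools.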

How the results depend on the processing

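With DESeq2 in place of edgeR, 1 member was called in nodose over jugular neurons of the Trpv1 selection, 1 in the capsaicin selection and 2 over both selections, against 0 by edgeR; DESeq2 size factors in edgeR, no filter, no CPM minimum and fits of more pools called none. With CPM on plain totals, 3 members (Crlf2 in Trpv1-negative nodose neurons added) instead of 2 reached 10 CPM in both pools of a group. Same-numbered pools did not deviate together (r = 0.00596, -0.0159 and -0.00885 in the 3 pairs of groups). With the replicate number as a block, the Trpv1 selection gave Il13ra1 2.49, Osmr -0.090 and Crlf2 1.25, each with the other sign, and Lpar3 and Trpv1 lost their calls (adjusted p of 0.275 and 0.308); the block changed no other call named here.

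With each pool left out in turn, where an arm keeps 1 pool that is assumed to vary like the others, no member was called. In nodose over jugular neurons of the Trpv1 selection, log2 fold changes ran from -2.74 to 9.77 (Il13ra1), -0.13 to 1.14 (Il5ra), -8.83 to 6.39 (Osmr) and -2.71 to 5.34 (Crlf2). In the capsaicin selection, Il5ra ran from -2.10 to 4.19. Over both selections they ran from -0.24 to 2.26 (Il5ra), -8.90 to 3.85 (Osmr) and -2.56 to 4.30 (Crlf2). In Trpv1-positive over Trpv1-negative nodose neurons they ran from -7.65 to 0.82 (Il4ra), -0.32 to 0.40 (Csf2rb) and -0.24 to 0.84 (Il7r), and the interaction of Il4ra from -2.40 to 5.55. Il4ra over both selections and in the Trpv1 selection kept its sign in every alternative.

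Over all genes, the 35 calls of the Trpv1 selection became 506 with DESeq2, 59 without the filter, 71 with 6 pools, 13 with the block and 0 without any 1 pool. The 0 calls of the capsaicin selection became 800, 122, 111 (10 pools), 20 and 0 to 29. The 6 calls against Trpv1-negative neurons became 374, 10, 15 (6 pools), 1 and 0. The 88 calls over both selections became 1215, 222 and 41 (block) and 36 to 82 with a pool left out, and the 0 of the interaction 1185, 95 and 0 to 195. The causes were not tested. Depth limits the members below 3 counts, above all in the capsaicin selection.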

Other observations

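Against the Trpv1-negative nodose pools, which held no Osmr count, DESeq2 gave Osmr an adjusted p of 1.99e-08, although the 4295 counts of the Trpv1-positive nodose group were all in 1 of its 2 pools. The gene failed the 10 CPM minimum in both pools and the filter of the edgeR fit, and the fitted size is no bound.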
